A study of Mus musculus with 8 samples.

Results

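Rnf125, Slc34a2, Prkce, Aass, Adra1b and Hopx hold 6 of the 11 strongest chromatin loops that REV-ERBα pull-down recovered from mouse liver at zeitgeber time (ZT) 10. They are 6 of the 21887 protein-coding genes of the RefSeq annotation, and 14876 of those genes had at least 1 listed loop within reach in the same library. The genes were chosen by the count of their strongest loop in the knock-in ZT10 library, with the fibrinogen genes set aside, so every value from that library is given as a description and was not tested. At each gene, a loop was counted when either anchor lay in the gene body or within 25 kb of it.

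The study used in-situ ChIA-PET, in which fixed chromatin is cut and rejoined inside the nucleus and then pulled down through a bound protein. A paired-end tag (PET) is a sequenced pair whose ends fall in 2 separated places that lay near each other, and a loop is a pair of such places, called anchors, with the number of PETs joining them. The pull-down was through the HA tag of REV-ERBα, a nuclear receptor that recruits corepressors and represses genes of the circadian clock and of metabolism. In liver its protein peaks in the daytime, near ZT10, and is scarce near ZT22. A loop records nearness at a bound site and not whether a gene is on or off.

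The knock-in libraries, 1 at ZT10 and 1 at ZT22, came from livers of genotype REV-ERBa3HA/3HA with no virus given, so the tag sits on the animal's own protein. The other 4 libraries were taken at ZT10 from mice of genotype REV-ERBaf/fREV-ERBbf/f that all received AAV8-TBG-Cre, so both floxed receptor genes were targeted in dhIDR and WT livers alike. The 2 dhIDR libraries also had AAV8-TBG-3HA-REV-ERBa-delhIDR, a form that by its label lacks the hIDR, and the 2 WT libraries had AAV8-TBG-3HA-REV-ERBa-WT. The TBG promoter acts in hepatocytes, so the tagged protein of these 4 livers comes from a viral construct in that cell type. Deletion of the floxed genes cannot be read from loop lists and was not checked here. The labels do not say whether replicates were separate animals, so a p-value refers to library-to-library spread, possibly technical.

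The libraries differed in ways that touch every result here. Listed PETs numbered 320427 at ZT10 and 132709 at ZT22, 178426 and 160635 in dhIDR, and 104161 and 204018 in WT. Every listed loop had at least 3 PETs, so weaker loops are not in the lists and the totals are not the sequencing depth. A loop may also be unlisted for another reason, since the loop caller is not known. At the 6 genes the shortest listed ZT10 loop spanned 8.15 kb between anchor centres. Closer pairs may not be listed at any count. The ZT10 knock-in library listed 67 loops of at least 100 PETs, against 3 at ZT22, none in either dhIDR library and 2 in each WT library. Its anchors were wider, with a median of 1067 bp, against 601 to 626 bp in the other 5. Its loops were also shorter, with a median span of 40.1 kb, against 524 to 1071 kb in the other 5. Loops over 2 Mb made up 8.33% of its list, against 38.8 to 44.2% of theirs. At the 6 genes, 5 of 282 loops at ZT10 and 17 of 52 at ZT22 spanned over 2 Mb. Summed PETs near 10 hepatocyte markers came to 1982 at ZT10, with only Serpina1c at 0, and those near 6 Kupffer cell markers to 6, with Clec4f, Marco, Adgre1 and Vsig4 at 0. Near 8 lung epithelium markers they came to 812 at ZT10. At ZT22 the sums were 97 (hepatocyte), 39 (Kupffer) and 37 (lung epithelium). In dhIDR replicates 1 and 2 they were 76 and 55 (hepatocyte), 114 and 43 (Kupffer) and 57 and 45 (lung epithelium). In WT replicates 1 and 2 they were 47 and 86 (hepatocyte), 39 and 129 (Kupffer) and 22 and 45 (lung epithelium). The hepatocyte markers thus did not stand above the Kupffer markers in dhIDR replicate 1 or WT replicate 2. Most of the lung marker PETs at ZT10 lay in the windows of Sftpa1 (471 PETs) and Sftpc (280), surfactant genes. Neighbouring genes share the PETs of such windows, and the neighbours of Sftpa1 and Sftpc were not examined. The other lung markers were low, with Sftpb at 26, Scgb1a1 at 23, Napsa at 6, Ager and Aqp5 at 3 each and Lamp3 at 0. Any part of lung signal in the levels at Slc34a2 and Hopx, which are also lung genes, was not tested.

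The strongest loop of each locus had anchor centres 11.4 kb (Adra1b) to 50.5 kb (Slc34a2) apart, and it had at least 2.21 times the PETs of the next loop. The strongest loop had 312 PETs at Rnf125 (95% exact Poisson interval 278 to 349), 289 at Slc34a2 (257 to 324) and 251 at Prkce (221 to 284). It had 233 at Aass (204 to 265), 205 at Adra1b (178 to 235) and 177 at Hopx (152 to 205). The intervals of neighbours in this order overlap, and they cover counting error only, since PCR copies are not independent molecules. Among the 57865 loops of the library these loops ranked 2, 4, 6, 7, 8 and 11. Ranks 1, 3 and 5 lay at the fibrinogen genes. Rank 9 lay in Sfi1 (199 PETs) and rank 10 at Nr1d1, the gene of REV-ERBα itself (184 PETs), and neither gene is among the 6. Just below Hopx, a loop of 173 PETs had no protein-coding gene within 25 kb, and then came Arhgap5 (169), Qsox1 (168), Eif1a and Tmed7 (166, a shared loop), and Alpk2 and Nedd4l (161, a shared loop).

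**Figure D1:**
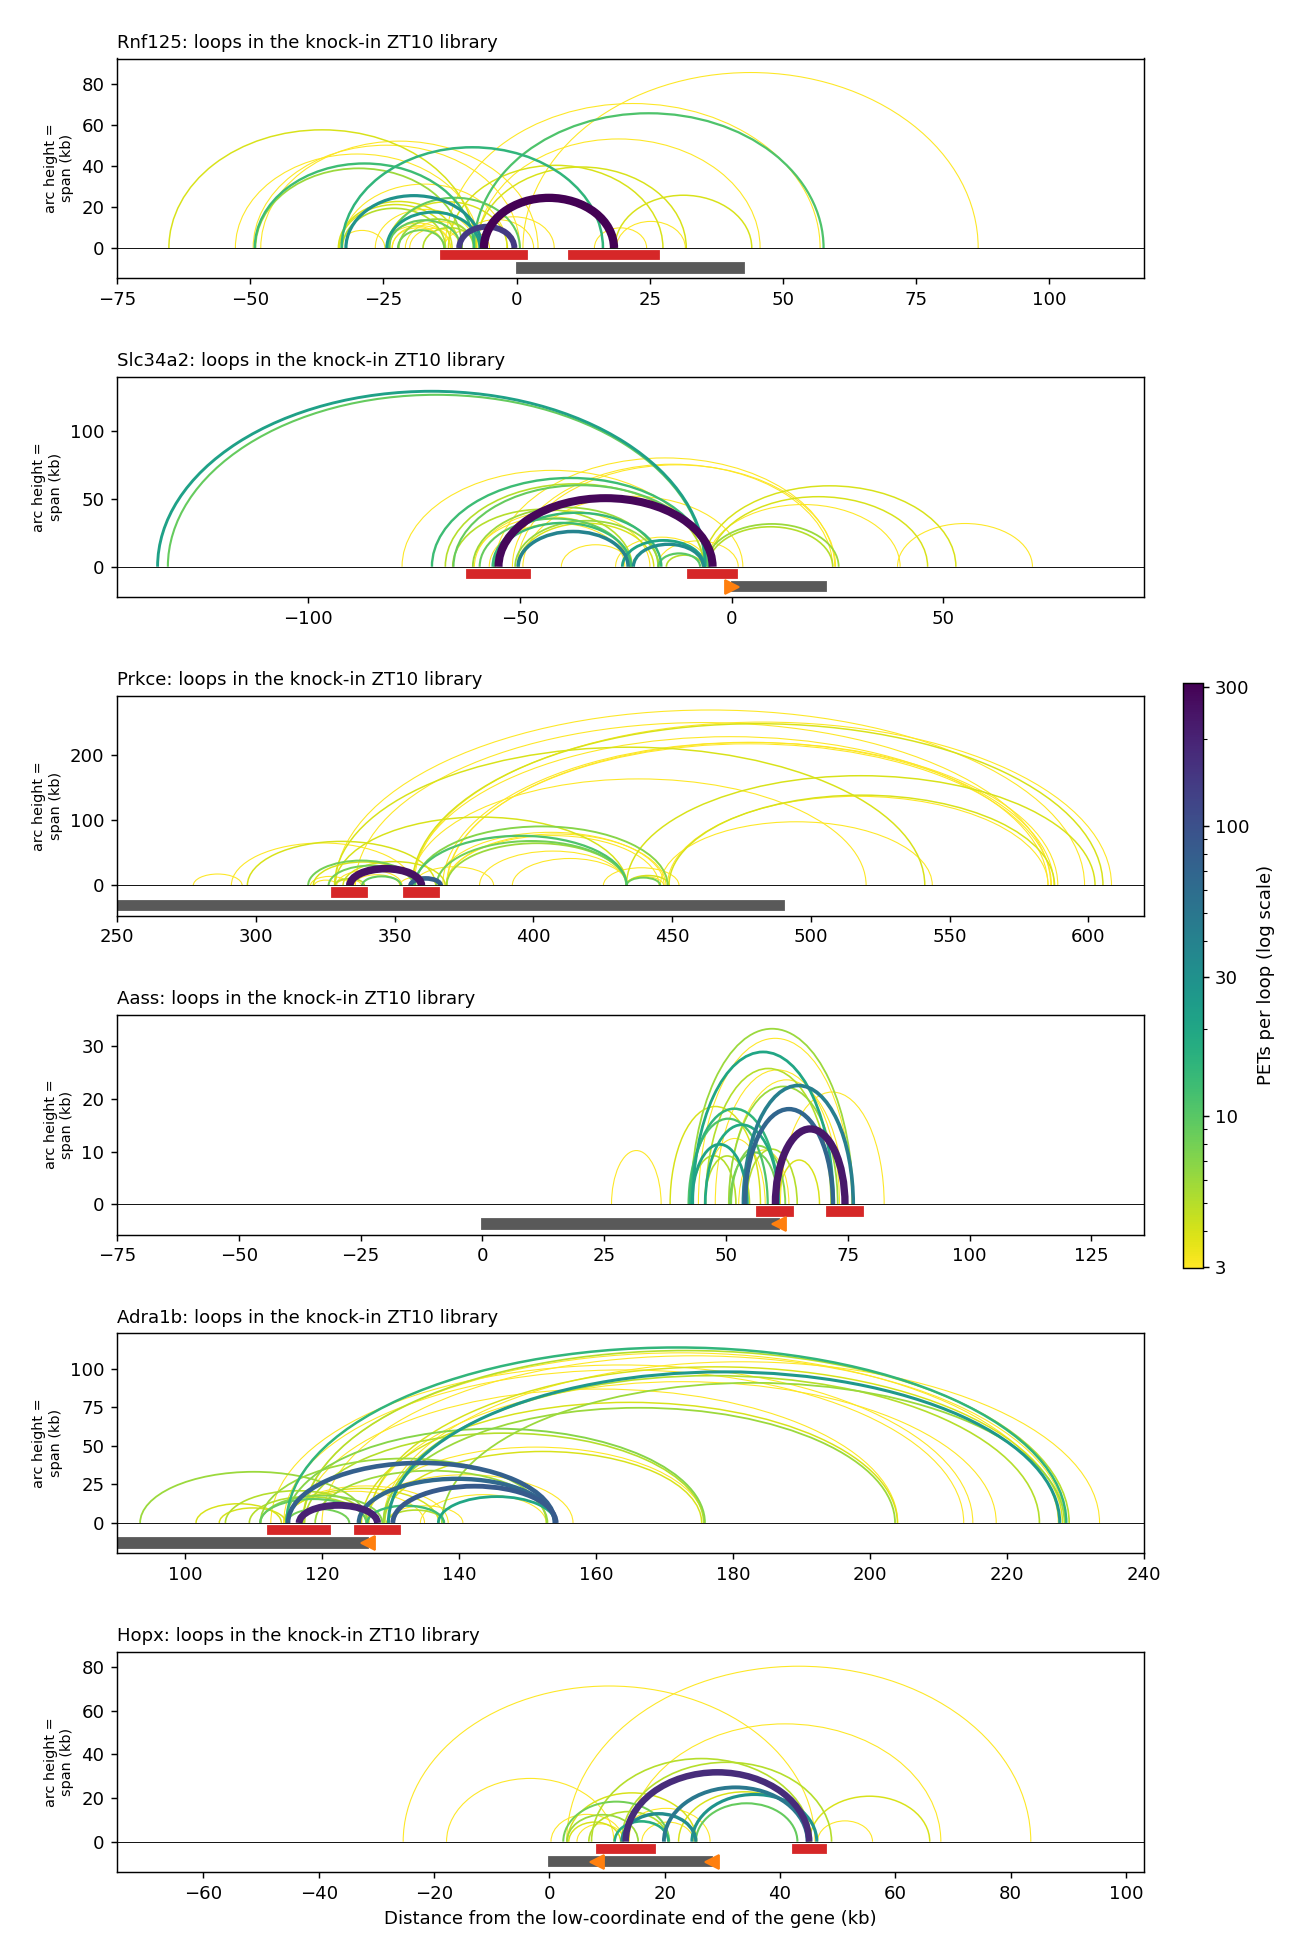
Loops at each of the 6 genes in the knock-in ZT10 library. The horizontal axis is the distance in kb from the low-coordinate end of the gene, arc height is the span in kb, arc colour and thickness give PETs on a log colour scale, grey bars are gene bodies, orange triangles annotated starts where the promoter table has them, and red bars the anchors of the strongest loop. Loops that leave the drawn window are not shown; in each panel the thickest arc, of 312 PETs at Rnf125 down to 177 at Hopx, joins the red bars.

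Rnf125 encodes a ubiquitin ligase that marks RIG-I, a sensor of viral RNA, for destruction. It lies on chromosome 18 (20944615 to 20987359, mm10), and its strongest loop joined an anchor over the low-coordinate end (20930352 to 20946594) to one wholly inside the gene (20954417 to 20971361). A second loop of 141 PETs lay almost wholly inside the first of these places, from -14.3 to -7.29 kb of the low-coordinate end to a stretch across that end. With overlapping anchors merged, the locus became a hub: the place over the gene end took part in 95.4% of the 742 PETs and was joined to 27 other places. Next in PETs among its partners outside the gene were places at -25.7 to -21.4 kb (73 PETs) and -34.5 to -29.5 kb (45 PETs) from that end. Weaker loops from the locus reached the neighbouring genes Trappc8 (25 PETs in the most joined place) and Rnf138 (14), a related ubiquitin ligase, and the farther Dsc2 (13) and Garem1 (13). Those 4 neighbours, like the others named at distal anchors under 20 PETs, were chosen after their values were seen.

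Slc34a2 encodes a sodium-dependent phosphate cotransporter, known from gut and lung. It lies on chromosome 5 (53049353 to 53071664), on the plus strand, and its strongest loop ran upstream. The anchor over its start (53039054 to 53050714) was joined to one at -62.5 to -47.5 kb from the start (52986903 to 53001838), which overlaps the long noncoding RNA genes 5033403H07Rik and Gm30301 and no protein-coding gene. The loop held 49.6% of the 583 PETs of the locus (Wilson 95% interval 45.5 to 53.6%), the highest share of the 6, and had 7.41 times the PETs of the next loop (39). Nothing joined 2 places within the gene: 50.6% of the PETs had 1 anchor in the body and the rest had none. The 2 anchors and a place at -27.0 to -21.9 kb formed a triangle, with 67 PETs from that place to the far anchor and 54 to the start. A loop of 22 PETs reached a place at -137 to -134 kb, where the nearest protein-coding gene, Anapc4, is 45.8 kb off.

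Prkce encodes protein kinase C epsilon, a lipid-activated kinase that needs no calcium and is known in liver for acting on insulin signalling. It is the longest of the 6 at 490 kb (chromosome 17, 86167785 to 86657919), and its strongest loop was buried in it. Both anchors (86495323 to 86507989 and 86521098 to 86533843) lay 328 to 366 kb from the low-coordinate end, with no gene end under either. Of its 608 PETs, 86.8% had both anchors in the gene, against 0 to 42.9% at the other 5 genes. The next loop (79 PETs) joined the 2 sides of the second anchor, 354 to 358 and 364 to 369 kb in. Outside these loops the PETs were spread thin, with 43 of 70 loops at the floor of 3 PETs. Far places with 25 PETs in Epas1, which encodes the hypoxia factor HIF-2α, and 22 PETs 10.6 kb from Tmem247 were joined to the gene.

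Aass encodes the bifunctional enzyme that opens lysine breakdown in mitochondria. It lies on chromosome 6 (23072173 to 23132986) on the minus strand, so that its start is at the high-coordinate end. The strongest loop joined the start (23128640 to 23135999) to a place with no annotated gene 9.90 kb upstream (23142888 to 23150334). The PETs of Aass were the most compact of the 6 loci. Of 516 PETs, 98.1% lay in loops with both anchors inside the window, and the median span was 18.1 kb. All 6 pairs of its 4 leading places were joined, by 233, 120, 48, 34, 31 and 18 PETs. The upstream place took part in 75.6% of the PETs, more than the start itself (60.7%).

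Adra1b encodes the α1B-adrenergic receptor, through which adrenaline and noradrenaline raise calcium in hepatocytes and mobilise glycogen. It lies on chromosome 11 (43774605 to 43901250), on the minus strand, and its strongest loop was the shortest of the 6, at 11.4 kb between anchor centres. It joined the outer start (43899322 to 43905971) to a place in the gene (43886672 to 43895744). A second annotated start, at 43836489, lay under neither anchor of this loop, and the start named below is the outer one. The loop held 28.1% of 730 PETs (24.9 to 31.5%), the lowest share of the 6, and the next loops had 86, 76 and 66 PETs. All 3 ended at the same place upstream of the gene, between 152 and 157 kb from its low-coordinate end. The merged places at the start and in the gene were joined by 213 PETs, the start and the outside place by 155, and the gene and the outside place by 82. A further place, in the long noncoding RNA gene Gm12153, lay 226 to 230 kb from the low-coordinate end and 99.3 kb from the gene. It was joined to the start (30 PETs) and to the gene (26 PETs) but not to the outside place. A place at 398 to 400 kb from the low-coordinate end was joined to the start by 15 PETs and to the gene by 12. No loop of the locus spanned more than 503 kb.

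Hopx encodes a small homeodomain protein that does not bind DNA and acts through partners such as SRF and histone deacetylases. It lies on chromosome 5 (77086986 to 77115123) on the minus strand, with annotated starts at 77115123 and 77095267. The strongest loop rested on the inner start: its anchor (77095205 to 77105233) covers that start, overlaps the long noncoding RNA gene Hopxos and leaves the outer start free. The other anchor (77129159 to 77134932) begins 14.0 kb beyond the outer start, in a stretch with no annotated gene. That outside place took part in 71.5% of 407 PETs. It was also joined to places inside the gene at 18.4 to 21.4 kb (49 PETs) and 23.3 to 27.2 kb (37 PETs). These distances are from the low-coordinate end. The stretch from 23.3 to 27.2 kb ends just short of the outer start, and 37 PETs also joined it to the inner start's anchor. No listed loop joined the place at 18.4 to 21.4 kb to the one at 23.3 to 27.2 kb. Their centres lie closer than 8.15 kb, the shortest span of any listed ZT10 loop at the 6 genes. Nothing is read from that absence.

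The promoter table holds starts for Slc34a2, Aass, Adra1b and Hopx, and a start under an anchor of the strongest loop was found for each of these 4. Their sequences, from 250 bases before to 50 after the start, are shown because they are the loop ends that can be read at base level here. They are RefSeq sequences of GRCm38.p6, printed 5′ to 3′ in the direction of transcription. Both strands were searched for AGGTCA, the half-site that REV-ERBα and other nuclear receptors bind, CACGTG, the E-box of CLOCK and BMAL1, and TTATGTAA, the D-box of DBP and NFIL3. Capitals mark a match: in Aass, TGACCT, which is AGGTCA on the other strand, and in Hopx, CACGTG.
Slc34a2, chr5:53049103-53049402, plus strand: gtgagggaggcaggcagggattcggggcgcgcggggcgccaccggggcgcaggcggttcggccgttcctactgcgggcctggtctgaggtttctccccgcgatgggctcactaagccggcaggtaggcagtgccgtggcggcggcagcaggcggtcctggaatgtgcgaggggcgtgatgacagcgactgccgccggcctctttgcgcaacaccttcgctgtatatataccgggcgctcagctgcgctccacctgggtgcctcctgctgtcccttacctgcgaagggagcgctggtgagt
Aass, chr6:23132937-23133236, minus strand: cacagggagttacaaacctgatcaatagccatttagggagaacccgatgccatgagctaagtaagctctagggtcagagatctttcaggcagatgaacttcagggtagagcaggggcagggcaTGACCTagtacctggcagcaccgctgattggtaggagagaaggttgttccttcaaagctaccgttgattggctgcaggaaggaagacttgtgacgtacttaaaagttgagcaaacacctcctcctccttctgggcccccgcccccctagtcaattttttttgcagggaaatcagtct
Adra1b outer start, chr11:43901188-43901487, minus strand: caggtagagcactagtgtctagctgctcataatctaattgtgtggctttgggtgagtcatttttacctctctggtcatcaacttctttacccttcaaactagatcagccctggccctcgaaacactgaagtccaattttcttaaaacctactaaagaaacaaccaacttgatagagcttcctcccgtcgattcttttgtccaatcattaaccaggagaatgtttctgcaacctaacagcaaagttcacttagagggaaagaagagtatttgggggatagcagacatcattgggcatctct
Hopx inner start, chr5:77095218-77095517, minus strand: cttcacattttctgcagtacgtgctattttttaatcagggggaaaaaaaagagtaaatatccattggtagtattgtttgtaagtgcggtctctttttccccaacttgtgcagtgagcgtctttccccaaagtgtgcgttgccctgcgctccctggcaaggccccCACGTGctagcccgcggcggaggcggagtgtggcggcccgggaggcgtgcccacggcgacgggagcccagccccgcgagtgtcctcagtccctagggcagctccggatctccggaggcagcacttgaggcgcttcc

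The Aass match begins 127 bases before the start and the Hopx match 86 bases before it. AGGTCA is in 14.7% of 21263 protein-coding promoters of the same length, CACGTG in 7.84% and TTATGTAA in 0.894%. Slc34a2 and Adra1b held none of the 3 in this window, which says only that these letters are not in these 300 bases. The 4 promoters also differ in make-up, with a GC content of 68.7% at Slc34a2, 59.0% at the inner start of Hopx, 50.3% at Aass and 42.3% at the outer start of Adra1b, against a median of 56.3% over all promoters.

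**Figure D2:**
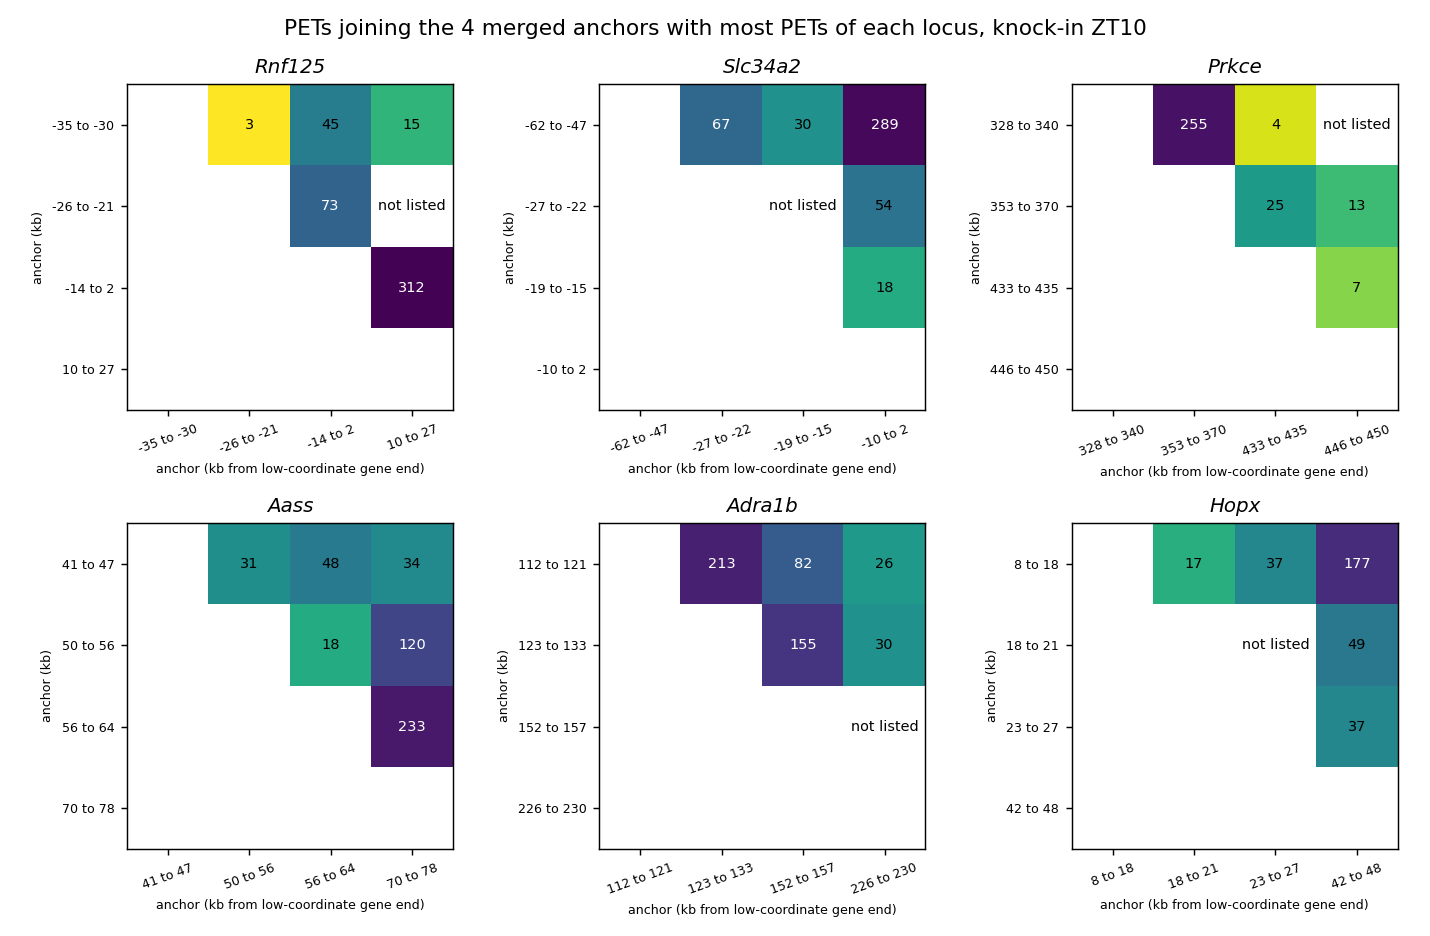
PETs joining the 4 places with most PETs at each locus, after merging overlapping anchors, in the knock-in ZT10 library. Both axes name the places by their distance in kb from the low-coordinate gene end and cell colour follows PETs on a log scale. All 6 pairs are listed at Aass, and 5 of 6 at each of the other genes. The unlisted pairs at Slc34a2 and Hopx are of close places, and no listed ZT10 loop at the 6 genes spanned under 8.15 kb.

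Set side by side, the loci fall into different layouts. A gene start or the low-coordinate gene end lay under the strongest loop at 5 of the 6 genes, and at Prkce neither anchor touched one. Counting outer gene ends alone, which leaves out the inner start of Hopx, 4 of the 6 had one. Across the ZT10 library, a gene end lay under an anchor of 56.7% of the 67 loops of at least 100 PETs and 13.4% of all loops. These shares are not matched for anchor width, whose median was 7.41 kb in the 67 loops and 1.07 kb over all loops. The partner anchor lay inside the gene at Rnf125, Adra1b and Prkce, and outside it at Slc34a2, Aass and Hopx. The strongest loop held 28.1 to 49.6% of the locus PETs, and the 5 strongest together 59.4% (Prkce) to 74.9% (Hopx). Over 1443 genes with at least 100 PETs at ZT10 the median share of the strongest loop was 18.3% (quartiles 12.3 and 26.8%), and all 6 genes stood above the upper quartile, as a choice by strongest loop favours. Ranked by all their PETs instead, they stood at 23 (Rnf125), 24 (Adra1b), 38 (Prkce), 45 (Slc34a2), 58 (Aass) and 109 (Hopx) among genes.

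**Figure D3:**
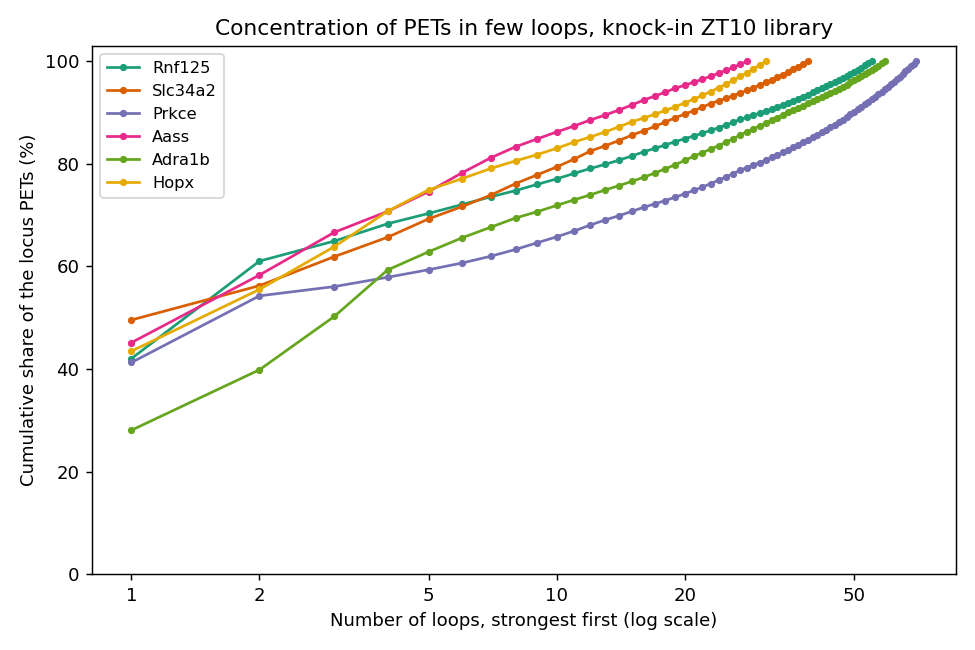
Cumulative share of the PETs of each locus (vertical axis, %) against the number of loops taken from the strongest down (horizontal axis, log scale), knock-in ZT10 library. The curves start between 28.1% at Adra1b and 49.6% at Slc34a2, and that of Prkce, with 70 loops, is the slowest to fill.

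The strongest loops were also wide, and their place in the ranking rests on PETs per loop, not per base. Anchors measured 16.2 and 16.9 kb at Rnf125, 14.9 and 11.7 kb at Slc34a2, and 12.7 and 12.7 kb at Prkce. They measured 7.36 and 7.45 kb at Aass, 9.07 and 6.65 kb at Adra1b, and 10.0 and 5.77 kb at Hopx. The median anchor was 7.41 kb among the 67 loops of at least 100 PETs and 0.932 kb among loops of 3 or 4 PETs. Divided by the product of both anchor widths, Aass had 4.25 PETs per square kb, Adra1b 3.40, Hopx 3.06, Slc34a2 1.66, Prkce 1.55 and Rnf125 1.13, against a median of 3.22 over all loops. On that scale, chosen after seeing the data, the loops of Aass, Adra1b and Hopx ranked 18969, 26687 and 31350 of 57865, and those of Slc34a2, Prkce and Rnf125 54826, 55870 and 57747. The 100 highest loops on that scale had at most 10 PETs each.

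**Figure D4:**
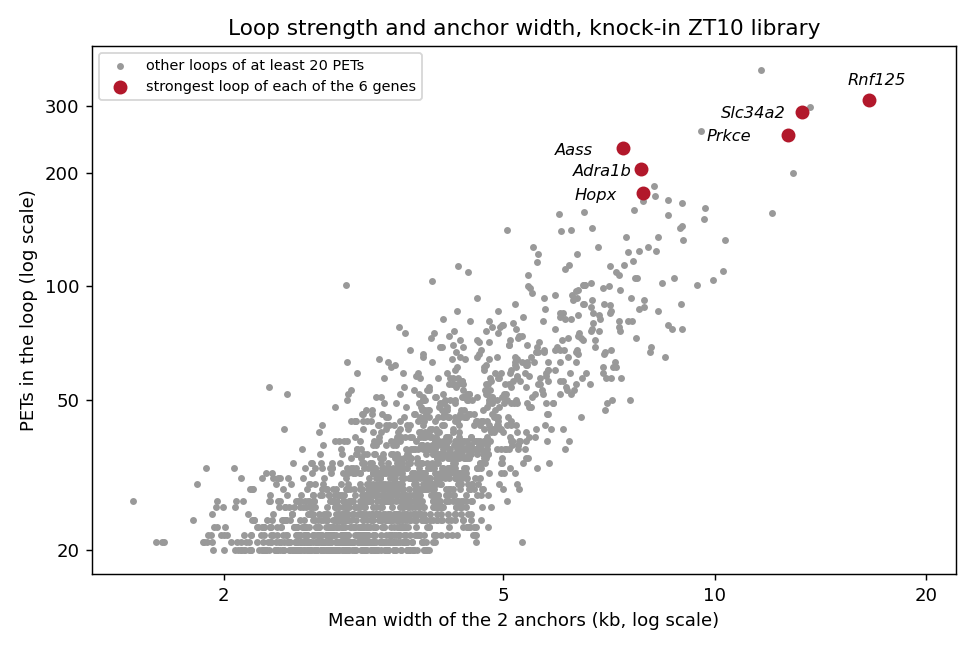
PETs per loop (vertical axis, log scale) against the mean width of both anchors in kb (horizontal axis, log scale) for the loops of at least 20 PETs in the knock-in ZT10 library. Red points are the strongest loops of the 6 genes, which lie at the upper right, with Rnf125 (16.2 and 16.9 kb anchors) the widest of them.

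Between ZT10 and ZT22, PETs at the 6 genes went the way the choice of genes favours. Rnf125 had 742 PETs at ZT10 and 20 (12.2 to 30.9) at ZT22. Slc34a2 had 583 and 17 (9.90 to 27.2), Prkce 608 and 57 (43.2 to 73.9), and Aass 516 and 42 (30.3 to 56.8). Adra1b had 730 and 30 (20.2 to 42.8), and Hopx 407 and 10 (4.80 to 18.4), in the same order of times. After scaling to all listed PETs, the log2 ratio of ZT10 over ZT22 was 3.91, 3.79, 2.13, 2.33, 3.31 and 4.01 in that order of genes, and the median gene had 0.86. All 6 were past 4-fold, as were 29.0% of the 6051 genes whose PETs summed to at least 30 in both libraries together. With the median gene's ratio as the scale, 928 genes in place of 1752 were past it, and 4 of the 6, without Prkce and Aass. The genes were selected on the ZT10 values, so nothing is read from that count.

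A loop with the layout of the strongest ZT10 loop, with both anchors overlapping by at least 1 bp, was listed at ZT22 for 5 of the 6 genes, but at 3 to 9 PETs in all. Adra1b had the highest of these, 9 PETs in 2 loops of 6 and 3. Aass had 7, Prkce 6, and Rnf125 and Slc34a2 3 each, and Hopx had none. In the first dhIDR library the loop was listed at Prkce (3 PETs) and Hopx (4), and in the second at none of the 6. In WT it was listed at Rnf125 (6) and Aass (3) in replicate 1 and at Adra1b (6) in replicate 2. At this overlap no gene had it in both replicates of a construct. With the anchors of both loops extended by 5 kb, Prkce had a match in both dhIDR libraries (3 and 4 PETs). Aass then had one in both WT libraries (3 PETs each). Without extension, that Aass loop of WT replicate 2 overlapped a separate ZT10 loop of 43 PETs and not the strongest one. At an overlap of 1 bp, 24 of the 67 ZT10 loops of at least 100 PETs had a match at ZT22. In dhIDR 13 and 10 had one, and in WT 15 and 11. The 67 include the strongest loops of the 6 genes.

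All listed loops of the loci were then compared in the same way. Of the loops listed at the 6 genes at ZT22, 11 of 52 overlapped a ZT10 loop at both anchors, against 1.29% of all ZT22 loops. The counts were 5 of 41 and 0 of 31 in dhIDR (0.720% and 0.348% of all their loops), and 11 of 43 and 6 of 52 in WT (0.525% and 0.365%). The genes were picked for their ZT10 loops and their anchors are wide, so these shares are a description. Among loops under 100 kb the counts were 10 of 20 at ZT22, 5 of 11 and 0 of 12 in dhIDR, and 10 of 18 and 5 of 15 in WT. Over all loops under 100 kb the shares were 3.54% at ZT22, 2.43% and 1.39% in dhIDR, and 1.81% and 1.29% in WT. At Rnf125 the loop across the gene end, of 141 PETs at ZT10, was matched by 2 loops of 3 PETs in each WT library and in neither dhIDR library. The 79-PET loop of Prkce was matched in dhIDR replicate 1 (4 PETs) and in WT replicate 1 (3 PETs), and the 34-PET loop of Hopx in dhIDR replicate 1 alone (3 PETs). At Adra1b, WT replicate 1 listed the loops from the start to the outside place (4 and 3 PETs). It also listed the 282 kb loop from the gene to the place 398 to 400 kb from the low-coordinate end (3 PETs). ZT22 listed a 273 kb loop from the place at the start to that same far place, at 3 PETs.

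The dhIDR and WT libraries, which the choice of genes did not use, were compared over all genes. PETs at Rnf125 numbered 13 and 11 in dhIDR, against 23 and 31 in WT. At Slc34a2 they numbered 6 and 10 in dhIDR, against 25 and 20 in WT. At both genes the 2 dhIDR values lay below both WT values. At Prkce they numbered 87 and 45 in dhIDR and 51 and 66 in WT, and at Aass 12 and 27 in dhIDR and 20 and 6 in WT. Adra1b had 43 and 23 in dhIDR and 17 and 55 in WT, and Hopx 16 and 9 in dhIDR and 6 and 13 in WT. At these 4 genes the groups overlapped. The counts are raw, from libraries of 104161 to 204018 listed PETs. How many of all genes separate like Rnf125 and Slc34a2 was not counted, so nothing is read from that separation.

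None of the 6 genes passed edgeR's quasi-likelihood test at an adjusted p of 0.05, and 0.0294% of the 10209 genes tested did. The log2 difference, dhIDR minus WT, was -1.39 (SE 0.59) at Rnf125 and -1.78 (SE 0.74) at Slc34a2, with unadjusted edgeR p of 0.0434 and 0.0406. At an unadjusted p under 0.05 the test took 277 of all genes. The difference was -0.09 (SE 0.39) at Prkce, 0.18 (SE 0.89) at Aass, -0.23 (SE 0.50) at Adra1b and 0.22 (SE 0.84) at Hopx. The adjusted edgeR p was 1.00 at each of the 6, which does not show that the groups are alike. The 3 genes that passed, Sfi1, Gm51877 and Eif4enif1, were lower in dhIDR, and none passed in an edgeR fit without the loops at Sfi1 (294 at an unadjusted p under 0.05), an alternative chosen after seeing the data.

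**Figure D5:**
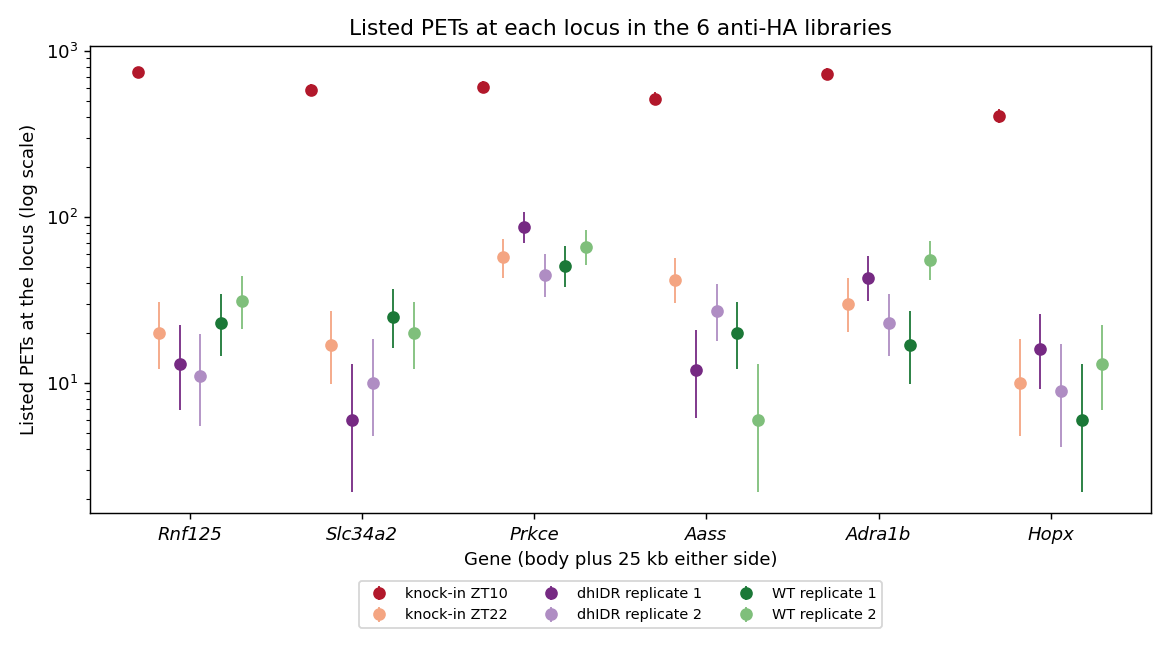
Listed PETs (vertical axis, log scale) at each of the 6 genes, body plus 25 kb either side, in the 6 libraries, from left to right knock-in ZT10, knock-in ZT22, dhIDR replicates 1 and 2, and WT replicates 1 and 2. Bars are exact 95% Poisson intervals for counting error; the ZT10 points, which chose the genes, lie between 407 and 742, and the others between 6 and 87.

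Relatives and pathway partners of the 6 genes had fewer PETs at ZT10 than the 6 themselves, which the choice of the 6 by their ZT10 loops favours. The median protein-coding gene had 6 PETs. Of 5 other phosphate transporter genes all had ZT10 PETs, from 3 at Slc34a3 to 59 at Slc20a2. Among the other protein kinase C genes, Prkca had 94 PETs, Prkch 83, Prkcb 53, Prkcz 47 and Prkci 45, and Prkcd and Prkcq were listed at 0. The 8 other genes of lysine breakdown had 3 to 20 PETs, the highest at Aldh7a1, whose enzyme acts later in the pathway than that of Aass. Of 8 other adrenergic receptor genes, Adra1a had 18 PETs, Adrb3 13, and Adra1d, Adra2c and Adrb1 were listed at 0. In the RNF125 list, Ddx58, which encodes RIG-I, the target of the ligase, had 175 PETs at ZT10 and 19 at ZT22, and the other 6 genes had 9 to 31 at ZT10, of which Rnf138 shares loops with its neighbour Rnf125. In the list of Hopx partners, the heart and liver development factor gene Gata4 had 142, against 18 at ZT22, and Srf and Hdac2 had 4 and 8 at ZT10. These are PETs per gene window and not per length, so levels of different genes are not compared beyond that.

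By distance over log2(PETs + 1) in the 6 libraries, and sharing no loop, the genes most like each of the 6 were these. Slc13a4 was the nearest to both Rnf125 (distance 1.18) and Slc34a2 (0.92), with Ttll8 (1.19) next for Rnf125 and Gm44812 (1.16) for Slc34a2. Itpr1 (0.81) and Tbl1xr1 (0.87) were nearest to Prkce, and Hlf (1.50) and Trpm8 (1.58) to Aass. Ddah1 (1.03) and Mtus1 (1.14) were nearest to Adra1b, and Acot4 (0.78) and Slc25a42 (0.81) to Hopx. Their strongest ZT10 loops had 35 (Acot4) to 155 PETs (Trpm8), a range that the choice of the 6 by their strongest loops favours.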

How the data were processed

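The authors deposited, for each library, a list of anchor pairs with the raw counts of PETs joining them (column 7), not normalized. Per the submitters' processing notes, coordinates are those of mm10. Which aligner and loop caller were used is not given in the sources used here, and 2 anti-CTCF samples were not analysed here. Sample titles gave the groups and replicates. Mitochondrial loops were left out.

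PETs were summed per protein-coding gene over loops with an anchor in the gene body or within 25 kb (RefSeq, GRCm38.p6), so neighbours share PETs. Overlapping ZT10 anchors of a locus were merged into places. dhIDR and WT libraries were compared over all genes with edgeR 4.0.16 in R 4.3.3 (quasi-likelihood test, TMM, filterByExpr, Benjamini-Hochberg at 0.05), and the standard error was the log2 difference over the square root of F. DESeq2 1.42.0 was an alternative. The step was tested on simulated counts. Knock-in ratios used shares of listed PETs with 0.5 PETs added. Poisson intervals are exact, and shares have Wilson intervals. Of 95 list entries 95 matched the annotation. Not every list entry is reported here. Other summed marker PETs at ZT10 were 193 (endothelial), 41 (stellate), 42 (cholangiocyte) and 200 (lymphoid).

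The 6 genes, the gene lists and the markers were chosen with earlier results of these data known. Genes named are the 6, the genes next below them, protein-coding genes at or nearest to anchors of their loops of at least 20 PETs, the pathway lists, and the 2 genes most alike. Alternatives changed the window, the loops counted, the scaling, the filter, the tool and the replicates.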

Additional observations from a re-analysis of the deposited data

How the results depend on the processing

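The count of genes called between dhIDR and WT, 3, became 4 with DESeq2 and 3 without TMM, without the filter or with a replicate block. It became 1 with the gene body alone or a 5 kb window, and 0 by edgeR with loops of at least 4 PETs, with loops up to 2 Mb or without the loops at Sfi1 (119, 135 and 294 at an unadjusted p under 0.05). Only 7 genes could be tested with anchors of at least 700 bp, none of them of the 6, and 2 were called. Leaving out 1 library gave 3 to 9 calls: 5 without WT replicate 1, 5 without WT replicate 2, 9 without dhIDR replicate 1 and 3 without dhIDR replicate 2, with the lone library assumed to vary like the other group. None of the 6 genes was called under any setting that tested it. The gene body alone tested 2 of the 6, and a 5 kb window tested 4. Loops of at least 4 PETs and loops up to 2 Mb each tested 5. With no library left out, their adjusted p by edgeR or DESeq2 was at least 0.9995. The same-numbered libraries shared only a number (correlation of deviations 0.0078). Rnf125 (-1.58 to -0.64) and Slc34a2 (-2.45 to -1.13) stayed lower in dhIDR wherever tested. The other 4 changed sign. Prkce was at 0.0021 with the gene body alone, 0.0359 with a 5 kb window and 0.0841 with loops of at least 4 PETs, and at -0.53 to 0.25 leaving out 1 library. Aass was at -0.87 with a 5 kb window and at -0.65 to 1.87 leaving out 1 library. Adra1b was at 0.30 with loops of at least 4 PETs and at -0.65 to 0.29 leaving out 1 library, and Hopx at -0.14 to 0.51. The cause was not tested. Genes past 4-fold between ZT10 and ZT22 numbered 1752 of 6051, and 928 of 6051 with the median gene as the scale (4 of the 6 genes past it). With anchors of at least 700 bp they numbered 3284 of only 3610 genes, so that setting called most genes it kept. With both loops' anchors extended by 5 kb, the strongest loop was matched at 1 gene in place of 0 in dhIDR replicate 2. It was matched at 3 in place of 1 in WT replicate 2, and at 3 in place of 2 in WT replicate 1. Prkce then had a match in both dhIDR libraries and Aass in both WT libraries. The Aass match in WT replicate 2 overlapped, without extension, another ZT10 loop, of 43 PETs. Locus PETs at ZT10 were 385 to 694 over the 6 genes with a 5 kb window, 295 to 599 with the gene body alone, 343 to 630 with loops of at least 5 PETs and 90 to 581 with both anchors in the window. The strongest loop's share was 32.5 to 57.7% with loops of at least 5 PETs, 38.0 to 98.0% with the gene body alone and 46.0 to 68.6% at 5 genes with both anchors in the window. At Slc34a2 the 289-PET loop leaves the window under that setting, and another loop, of 33 PETs, held 36.7% of the 90 PETs that remain. Loops of under 3 PETs are not listed, which limits every count outside the ZT10 library.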
